A study of Homo sapiens with 12 samples.

Results

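The refilins are 2 small proteins, refilin A and refilin B, encoded by FAM101A and FAM101B, and FLNA encodes their partner filamin A. These 3 genes were taken by name from the 38478 genes of the deposited matrix. FAM101B had been picked for its rise with lenalidomide and in the drug combination, so its values in those comparisons are given as a description without a test.

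The libraries were made from poly(A) RNA of OPM-1, a cell line grown from a human multiple myeloma, after 48 h of treatment, with 3 biological replicates in each of 4 conditions. The conditions were the solvent DMSO, lenalidomide at 0.1 μM (LEN), a RUNX inhibitor at 1 μM (RUNXi in the sample titles) and the 2 drugs together at those doses (LEN+RUNXi). Lenalidomide binds the ubiquitin ligase receptor cereblon and directs the lymphoid transcription factors IKZF1 and IKZF3 to degradation, and the RUNX inhibitor keeps RUNX proteins from their partner CBFβ. All samples come from a single cell line, so other myeloma cells are not represented.

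Filamin A crosslinks actin filaments into networks and ties them to membrane proteins, among them the cytoplasmic tails of integrins. Refilins bind filamin A and turn it from a builder of branched networks into a bundler of actin filaments, and they are known for organising actin around the nucleus. Filamin C, encoded by FLNC, is a member of the filamin family best known from muscle.

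Each sample held 16352548 to 31386210 reads on genes, the median sample 30219883 under DMSO, 28795905 under LEN, 23153105 under RUNXi and 19417027 under both drugs. The plasma cell markers (7 of 7 present, among them SDC1, IRF4 and TNFRSF17) added up to 1039 to 1312 RPKM per sample, RPKM being reads per kilobase of gene, scaled to the reads on genes in the sample. T cell markers added up to at most 0.580 RPKM with CD3D and CD2 at or under the floor of 3 reads, monocyte markers to at most 1.07 RPKM with CSF1R at or under it, and 4 of 4 fibroblast markers were at or under it. Of the erythroid markers, 3 of 4 were at or under the floor, and HBB carried the sum of 18.2 to 22.9 RPKM.

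FAM101A lies at chr12:123973241-124316024 on the plus strand of GRCh38, FAM101B at chr17:439978-445939 on the minus strand and FLNA at chrX:154348524-154374634 on the minus strand (GENCODE 44). The coding parts used for the refilin genes were 648 bases for FAM101A and 432 for FAM101B. They were 65.3% identical over 424 aligned bases, which leaves part of the longer one uncovered, and their longest shared run was 17 bases. FLNA was 74.9% identical to FLNC, with a longest shared run of 50 bases. A read longer than a shared run cannot lie within it. Those runs are shown because a read that does lie within one cannot be placed on either gene alone:

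FAM101A and FAM101B: gcacgtggcgcaactac

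FLNA and FLNC: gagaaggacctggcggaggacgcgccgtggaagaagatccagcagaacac

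FAM101A was listed at 0 reads in 12 of 12 samples. At these depths 3 reads would have been 0.0445 to 0.0853 RPKM, so the transcript was not detectable above that level under any condition, and it was not tested. The deposited length of FAM101A was 2150 bases against 3306 in the union of its GENCODE exons, so this level holds for the deposited gene model. Such limits cover counting error only. FLNC likewise had at most 1 read in any sample. Of the 3 chosen genes, 2 were above the floor of 3 reads in OPM-1 cells, and both of these, FAM101B and FLNA, were among the 11241 genes that were tested because their mean level reached 0.5 RPKM.

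FAM101B was at 5.98, 4.84 and 5.42 RPKM in the DMSO samples and at 10.8, 9.10 and 9.21 RPKM in the LEN samples. The RUNXi samples were at 5.27, 5.29 and 4.47 RPKM and the LEN+RUNXi samples at 11.6, 10.2 and 10.2 RPKM. All 6 samples that received lenalidomide lay above all 6 that did not, whether or not RUNXi was present. The gene was picked for this rise, and the share of all tested genes with this split was not counted. For LEN against DMSO alone, every LEN sample lay above in 9.42% of all tested genes. In such bulk RNA a change in the share of cells that hold the transcript and a change in its amount per cell cannot be told apart. The means were 10.7 ± 0.802 RPKM in LEN+RUNXi, 9.72 ± 0.969 in LEN, 5.41 ± 0.570 in DMSO and 5.01 ± 0.469 in RUNXi (SD, n = 3 each). In this order LEN+RUNXi and LEN overlapped, DMSO and RUNXi overlapped, and LEN and DMSO did not. These values rest on 375 to 1005 reads per sample.

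The log2 difference of FAM101B between LEN and DMSO was 0.83 (SE 0.10), a 1.78-fold level on the scale of RPKM + 0.1. The log2 difference between LEN+RUNXi and DMSO was 0.97 (SE 0.10), or 1.96-fold, and that between LEN+RUNXi and RUNXi was 1.08 (SE 0.10), or 2.11-fold. These are the contrasts for which the gene was chosen, so FAM101B was neither tested nor called in them. For the genes tested, a call required an adjusted p no higher than 0.05 together with a log2 difference of 0.32 or more in either direction. As the background, this rule called 0.649% of the tested genes in LEN against DMSO, 2.94% in LEN+RUNXi against DMSO and 3.63% in LEN+RUNXi against RUNXi.

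RUNXi alone against DMSO was the comparison of FAM101B for which the gene was not picked. The rise that led to the choice is measured from the same DMSO samples, so this test is not independent of it. The log2 difference of FAM101B between RUNXi and DMSO was -0.11 (SE 0.10, 95% interval -0.32 to 0.10), with an adjusted p of 0.54 by limma, and the samples overlapped. A fall of up to 0.32 or a rise of up to 0.10 on the log2 scale lies within that interval. With a sample left out the difference ranged from -0.18 without DMSO replicate 2 to -0.03 without RUNXi replicate 3 or DMSO replicate 1, with limma adjusted p from 0.36 to 0.93. In this comparison 1.77% of the tested genes were called. As a description without a test, the log2 difference made by lenalidomide was 0.24 larger with RUNXi than without it (SE 0.14). LEN+RUNXi differed from LEN by 0.14 (SE 0.10), also not tested, with overlapping samples, and 1.68% of the tested genes were called there. That difference ranged from 0.08 without LEN+RUNXi replicate 1 to 0.22 without LEN replicate 1. The 5 comparisons share samples and are not independent of each other.

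**Figure D1:**
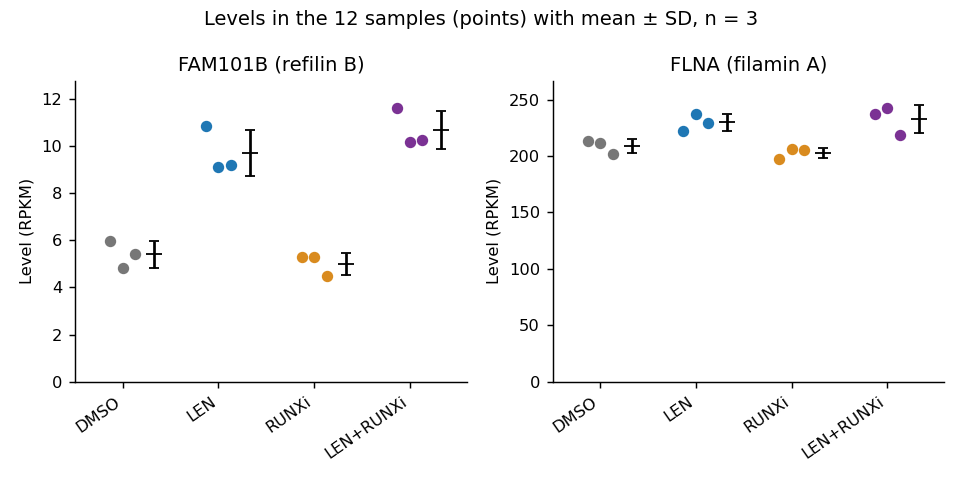
Levels in RPKM of FAM101B and FLNA (vertical axes, each from 0) in the 4 conditions, with 1 point per sample and the mean ± SD (n = 3) beside them. FAM101B was at 9.10 to 11.6 RPKM with lenalidomide and at 4.47 to 5.98 without it, and FLNA spanned a far narrower relative range.

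FLNA was among the abundant transcripts of these cells. It held rank 176 to 237 of the 38478 genes by RPKM and took 0.168% to 0.206% of the reads on genes, against rank 4793 to 7280 for FAM101B. FLNA was at 213, 211 and 201 RPKM in DMSO and at 223, 237 and 229 RPKM in LEN. It was at 198, 206 and 205 RPKM in RUNXi and at 237, 242 and 219 RPKM in LEN+RUNXi. All 6 samples with lenalidomide again lay above all 6 without it, over a much smaller relative range than for FAM101B. How many of all tested genes split in this way was not counted, so the split is a description.

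The FLNA means were 209 ± 6.20, 229.8 ± 7.39, 203 ± 4.53 and 233 ± 12.3 RPKM in DMSO, LEN, RUNXi and LEN+RUNXi (SD, n = 3 each). The log2 difference between LEN and DMSO was 0.14 (SE 0.04, interval 0.05 to 0.23) and did not pass, with an adjusted p of 0.19 by limma. No sample overlapped in that comparison, which held for 9.42% of all genes tested in the upward direction (18.1% for LEN+RUNXi against DMSO and 19.0% against RUNXi). In LEN+RUNXi against DMSO, 8.64% of the tested genes had an adjusted p of at most 0.05 by limma. FLNA was 0.16 above DMSO there on the log2 scale (0.06 to 0.25), 1.11-fold, with an adjusted p of 0.042. That p went above 0.05 in 5 of 6 fits with a sample left out: 0.055, 0.097 and 0.14 without DMSO replicates 1, 2 and 3, and 0.14 and 0.15 without LEN+RUNXi replicates 1 and 2. It was 0.015 without LEN+RUNXi replicate 3.

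In LEN+RUNXi against RUNXi, 15.0% of the tested genes had an adjusted p of at most 0.05 by limma. FLNA was 0.20 above RUNXi there (0.10 to 0.29), 1.15-fold, with an adjusted p of 0.014. That p was 0.067 without RUNXi replicate 1, and 0.058 and 0.051 without LEN+RUNXi replicates 1 and 2. Neither difference reached the 0.32 needed for a call. FLNA differed by -0.04 between RUNXi and DMSO (interval -0.13 to 0.05, limma adjusted p 0.62) and by 0.02 between LEN+RUNXi and LEN (-0.08 to 0.11, limma adjusted p 0.86). The sign of the first turned with quantile normalization (0.0013), and that of the second with median-ratio scaling (-0.0088), without LEN replicate 1 (-0.0059) and without LEN+RUNXi replicate 2 (-0.0129). The difference between the effects of lenalidomide on FLNA with and without RUNXi was 0.06 (limma adjusted p 0.68). In that test 0 genes (0.00%) passed, with 1621 (14.4%) at an unadjusted p under 0.05, and 3 passed with voom, the limma method for reads.

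The promoter of FLNA is shown because the factor SRF, which drives many actin and actin-binding genes, binds a motif called the CArG box. The 250 bases before the start site, chrX:154374635-154374884 on the minus strand (RefSeq, GRCh38.p14), are printed with their CArG box in capitals:

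FLNA promoter: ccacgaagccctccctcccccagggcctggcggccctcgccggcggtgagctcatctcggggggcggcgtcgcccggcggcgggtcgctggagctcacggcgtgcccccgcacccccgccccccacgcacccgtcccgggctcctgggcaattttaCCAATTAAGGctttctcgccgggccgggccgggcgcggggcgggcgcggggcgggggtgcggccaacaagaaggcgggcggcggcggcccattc

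This box starts at position -94 from the start site, and 1.16% of 35116 promoter windows of that length hold one on either strand. The RUNX motifs TGTGGT and TGCGGT, the Ikaros motif TGGGAA and the interferon-stimulated element (GAAA, 2 free bases, GAAA) were searched on both strands and had 0 matches in this window, against 11% of all windows for TGTGGT, 5.84% for TGCGGT, 20.8% for TGGGAA and 3.02% for the interferon element. The absence of a match says only that these letters are not in these bases.

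**Figure D2:**
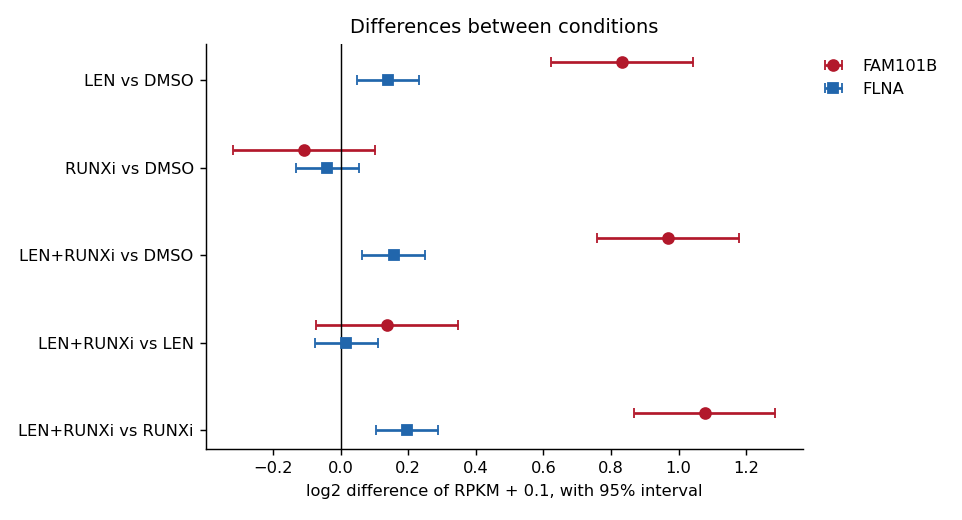
Log2 differences of RPKM + 0.1 (horizontal axis) with 95% intervals from limma for FAM101B and FLNA in the 5 comparisons (vertical axis). The 3 comparisons that differ in lenalidomide lie at 0.83, 0.97 and 1.08 for FAM101B and at 0.14, 0.16 and 0.20 for FLNA. FAM101B was picked for its rise with lenalidomide, so its intervals in comparisons with lenalidomide samples are a description and no test.

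Because RPKM corrects for gene length, the levels of refilin B and its partner can be set against each other within each sample. FAM101B stood at 2.29% to 2.81% of the FLNA level in DMSO and at 3.84% to 4.87% in LEN. It stood at 2.18% to 2.67% in RUNXi and at 4.20% to 4.90% in LEN+RUNXi. The means were 2.60 ± 0.269, 4.24 ± 0.552, 2.47 ± 0.258 and 4.60 ± 0.355 percent (SD, n = 3 each), so the level of refilin B mRNA relative to that of filamin A was higher in each lenalidomide sample, as a description. The deposited length of FLNA was 8513 bases against 10860 in the union of its GENCODE exons, and that of FAM101B 3622 against 3621, so the level of the percentage depends on the gene model.

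**Figure D3:**
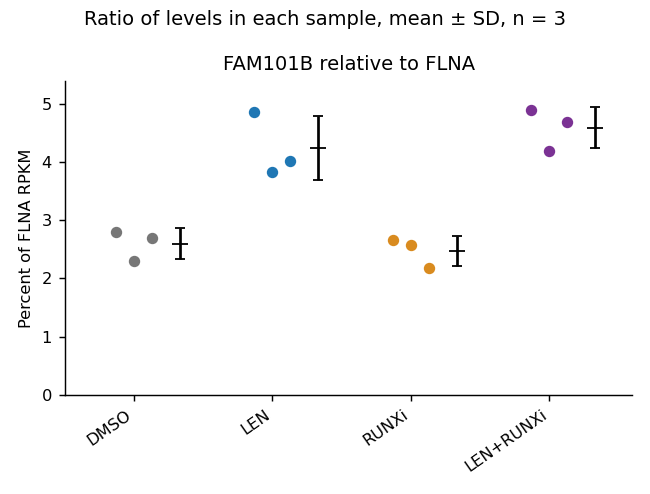
FAM101B as a percent of the FLNA RPKM in the same sample (vertical axis), with 1 point per sample and the mean ± SD (n = 3) for each condition. FAM101B spanned 3.84% to 4.90% in the 6 samples with lenalidomide and 2.18% to 2.81% in the other 6.

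The genes whose pattern was most like that of FAM101B were taken by Pearson's r of log2(RPKM + 0.1) over the 12 samples among 11240 genes. They were TMEM173 (STING, the adaptor of cytosolic DNA sensing) with r = 0.974, MLXIP (a glucose-responsive transcription factor) with 0.974, APOL6 with 0.970, CCDC88A (girdin, an actin-binding protein) with 0.966 and SLC15A4 (an endolysosomal transporter) with 0.959. The points share 4 conditions, so these coefficients are in part set by the condition means and are a description. TMEM173 was at 5.39 ± 0.252 RPKM under DMSO, 7.69 ± 0.644 under LEN, 5.20 ± 0.555 under RUNXi and 8.95 ± 0.653 under both drugs. CCDC88A was at 1.59 ± 0.0531, 2.11 ± 0.124, 1.55 ± 0.0675 and 2.39 ± 0.257 RPKM in that order. Both were picked for their likeness to FAM101B, so their being highest with lenalidomide is part of that choice. Their relative range was smaller than that of FAM101B.

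**Figure D4:**
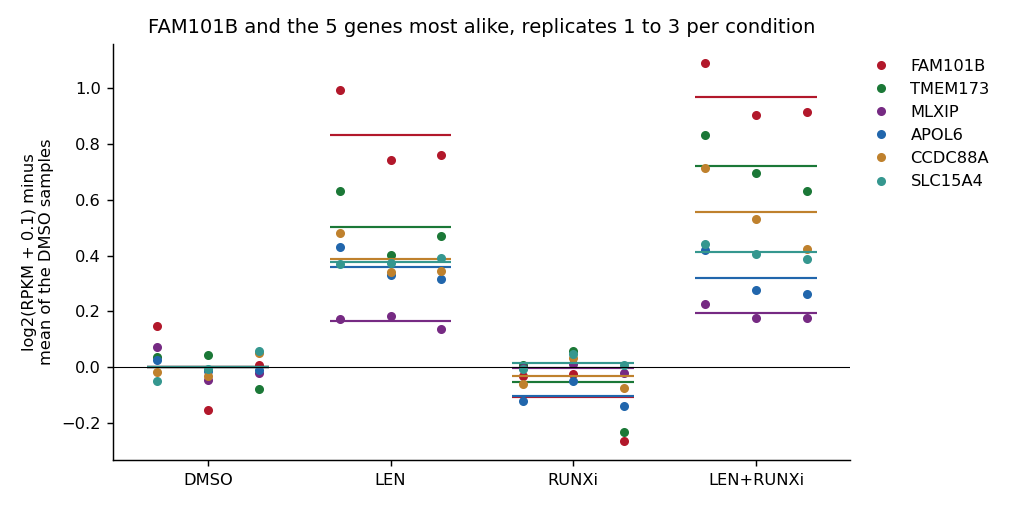
Level of FAM101B and of the 5 genes most alike in each sample, as log2(RPKM + 0.1) minus the mean of the DMSO samples (vertical axis), with replicates 1 to 3 as points and the mean of each condition as a line. The genes were picked for this likeness, with r from 0.959 to 0.974.

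For FLNA the 3 genes most alike were ADPRHL2 with r = 0.946, TMC8 with 0.924 and IRS1 (an adaptor of insulin signalling) with 0.923. IRS1 was at 7.79 ± 0.0824 RPKM under DMSO, 8.58 ± 0.167 under LEN, 7.43 ± 0.481 under RUNXi and 8.68 ± 0.491 under both drugs. FAM101B and FLNA had r = 0.851 with each other.

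Genes that work with filamins and refilins were followed as 6 lists of 59 genes, of which 51 could be tested. With lenalidomide alone 0 of 51 were called, at a background of 0.649% of all genes, and 2 passed the adjusted p alone by limma, at a background of 1.13%. With RUNXi alone 0 were called up and 3 down, at backgrounds of 0.685% and 1.09%. LEN+RUNXi gave 1 up and 0 down against DMSO (backgrounds 2.30% and 0.641%). It gave 0 up and 3 down against LEN (0.872% and 0.810%) and 4 up and 0 down against RUNXi (3.16% and 0.471%). By the adjusted p alone, 2 genes were higher and 9 lower with RUNXi, where 4.55% of all genes passed, and 5 and 1 in LEN+RUNXi against DMSO (8.64%). Against LEN these counts were 1 and 4 (4.62%), and against RUNXi 11 and 1 (15.0%). By the adjusted p alone, the share of the 51 genes lay above that of all genes in each of the 5 comparisons. With RUNXi it was 21.6% against 4.55%. The lists were chosen with results known and no set was tested, so the counts only describe these genes. The median log2 difference of the 51 genes against DMSO was 0.04 for LEN, -0.0091 for RUNXi and 0.05 for LEN+RUNXi, beside -0.0021, 0.0081 and 0.02 over all genes tested.

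Among 13 filamin-binding proteins, 9 were tested and ITGB7 was called. CAV1 was not called in the main tests, at 1.13 RPKM under DMSO, 1.41 under LEN, 0.709 under RUNXi and 0.838 under both drugs. ITGB7 encodes integrin β7, which binds filamin through its cytoplasmic tail. It was at 796, 758 and 732 RPKM in DMSO, at 926, 951 and 923 with LEN, at 482, 535 and 498 with RUNXi and at 689.7, 689.2 and 688.8 with both drugs. No pair of conditions overlapped, with LEN highest and RUNXi lowest. The share of all tested genes for which this holds was not counted. ITGB7 fell by 0.59 on the log2 scale with RUNXi (SE 0.04, limma adjusted p 9e-06) and was 0.29 higher in LEN than in DMSO (limma adjusted p 0.0051), short of the 0.32 for a call. In LEN+RUNXi it was 0.44 below LEN on the log2 scale and 0.45 above RUNXi, and the difference from DMSO was -0.14 (limma adjusted p 0.00014, 0.0002 and 0.055 respectively). The mRNA of ITGB7 was thus at a higher RPKM than that of FLNA in every sample. The RPKM of FLNA depends on the gene model, and protein was not measured. The members ITGB2 and ASB2 were at 0 reads in all samples, FBLIM1 had at most 1 read and ARHGAP24 4 to 14 reads.

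Of the 7 other actin crosslinkers and bundlers tested, 0 were called in any of the 5 comparisons, and FSCN1 (fascin) was at 0 reads. Of 14 tested genes of the serum response factor pathway, CNN2 was called. CNN2 encodes calponin 2, an actin-binding protein, and was at 118 ± 6.17 RPKM under DMSO, 135 ± 4.69 under LEN, 107 ± 8.27 under RUNXi and 142 ± 7.18 under both drugs (SD, n = 3 each). It was 0.42 higher on the log2 scale in LEN+RUNXi than in RUNXi (SE 0.06, limma adjusted p 0.0025). The differences of CNN2 from DMSO were 0.27 in LEN+RUNXi (limma adjusted p 0.017) and 0.19 in LEN (limma adjusted p 0.19). TPM3, a tropomyosin named after its value was seen, was the other gene besides ITGB7 that passed the adjusted p in LEN against DMSO, at 0.15 (limma adjusted p 0.049). MYL9 and TPM2, also regulated by this factor, were at 0 reads.

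Of the 9 genes of the nuclear envelope and the actin around it, LMNA was called. LMNA encodes the lamins A and C of the inner nuclear lamina. It was at 15.5 ± 0.795 RPKM under DMSO, 17.4 ± 0.675 under LEN, 11.7 ± 0.716 under RUNXi and 13.3 ± 0.766 under both drugs. LMNA fell by 0.40 on the log2 scale with RUNXi alone (SE 0.06, limma adjusted p 0.0028) and by 0.39 when RUNXi was added to LEN (limma adjusted p 0.0034). The log2 differences of FAM101B in those comparisons were -0.11 and 0.14.

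Of the 12 genes of TGF-β signalling, SMAD3 and TGIF1 were called. SMAD3, a receptor-activated transcription factor of the pathway, was at 1.02 ± 0.0805 RPKM under DMSO, 1.32 ± 0.102 under LEN, 1.30 ± 0.101 under RUNXi and 1.73 ± 0.196 under both drugs. It rose by 0.71 on the log2 scale in LEN+RUNXi against DMSO (SE 0.10, limma adjusted p 0.0019), with no overlap. Such a lack of overlap in the upward direction held for 18.1% of all tested genes. The differences in LEN and in RUNXi were 0.34 and 0.33 (limma adjusted p 0.19 and 0.098). The call of SMAD3 in LEN+RUNXi against RUNXi (0.38, limma adjusted p 0.032) was lost on leaving out any RUNXi replicate (adjusted p 0.07, 0.062 and 0.089 without replicates 1, 2 and 3) or LEN+RUNXi replicate 1 or 3 (0.12 and 0.063).

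TGIF1, a repressor of SMAD-driven transcription, was at 1.21 ± 0.116 RPKM under DMSO, 1.64 ± 0.0765 under LEN, 0.846 ± 0.0299 under RUNXi and 1.18 ± 0.0172 under both drugs. It fell by 0.47 with RUNXi alone (limma adjusted p 0.012), and under both drugs it was 0.44 below its LEN level (0.016) and 0.44 above its RUNXi level (0.01). The first of these gave an adjusted p of 0.053 without DMSO replicate 1, 0.05 (just above the threshold before rounding) without DMSO replicate 2 and 0.053 without RUNXi replicate 3. The comparison with LEN gave 0.055, 0.051 and 0.05 (again just above) without LEN replicates 1, 2 and 3 and 0.055 without LEN+RUNXi replicate 1. The difference in LEN against DMSO was 0.41 (limma adjusted p 0.051).

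**Figure D5:**
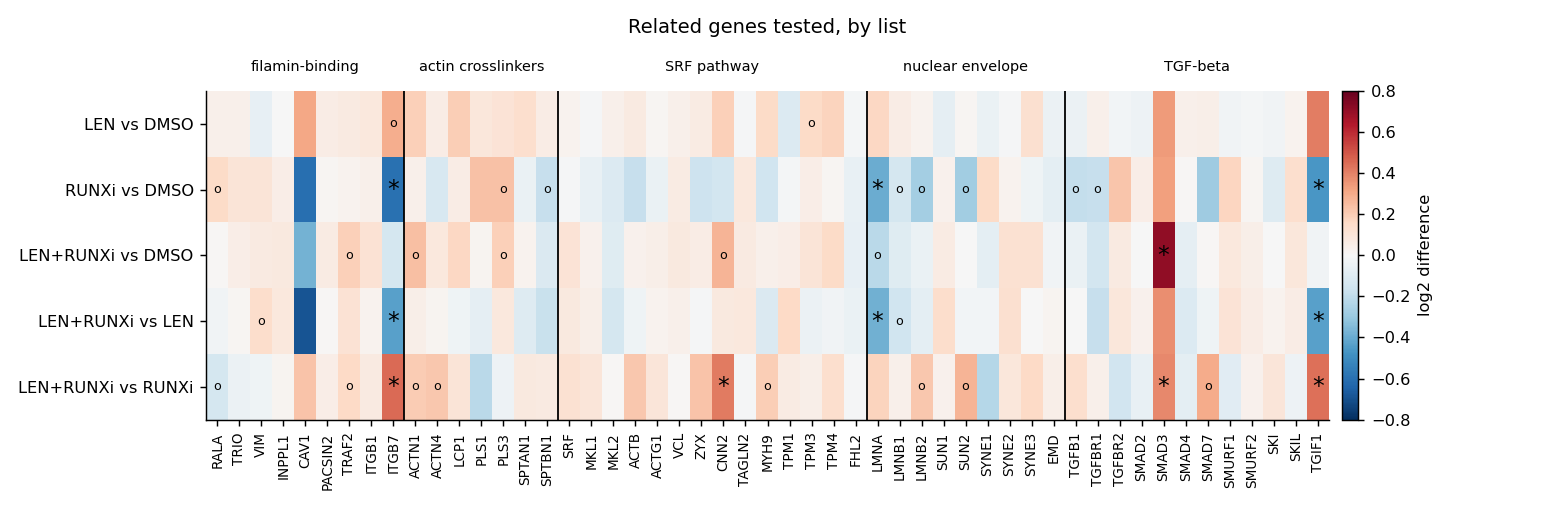
Log2 differences (colour, from -0.8 to 0.8) of the 51 tested related genes (columns, grouped by list) in the 5 comparisons. Stars mark calls, and open circles genes that passed the adjusted p of 0.05 alone without reaching 0.32, and 0 stars stand in the comparison of LEN with DMSO.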

How the data were processed

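Poly(A) RNA from 12 OPM-1 samples was sequenced on a NextSeq 500 with a stranded kit. Per the labels, the authors' processing used FastQC, STAR, Cuffnorm and DESeq2 with GRCh38, and tool versions and the annotation are not given in the sources used here. The authors deposited RPKM values with gene lengths. The test plan had named FPKM, but the file holds RPKM, which was kept as the unit. Values times length summed to the same total in every sample, and reads computed back from them came out whole (tolerance 0.01 reads) for 100% of values.

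The 11241 of 38478 genes whose mean level reached 0.5 RPKM entered limma 3.58.1 (R 4.3.3) as log2(RPKM + 0.1). All 12 samples were fitted together, with a mean for each condition, a variance trend and Benjamini-Hochberg adjustment. A fold change on this scale understates that of low genes. Calls had an adjusted p no higher than 0.05 and a log2 difference of 0.32 or more in size. The procedure was tested on simulated data. A pseudocount, filters, scalings, a smaller fit, a replicate block, voom on computed reads and leaving out each sample were tried as alternatives. Fits used replicates described as biological.

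The members and gene lists were chosen with earlier results of these data known. Named were all members, FLNC, list genes called in any of 5 comparisons, the 5 genes most alike to FAM101B and 3 to FLNA, and the 2 nearest protein-coding genes on each side. Coordinates are from GENCODE 44. Of the members, FLNA had a RefSeq promoter entry. Figures were drawn with Python 3.11.15 and matplotlib 3.10.9, and coding parts were aligned with Biopython 1.88. No sample was left out of the main tests. Some items covered by the naming rule are not reported here. 28 genes with a date in place of their name were kept.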

Additional observations from a re-analysis of the deposited data

How the results depend on the processing

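The described differences of FAM101B and the FLNA differences that passed the adjusted p kept their direction. The small FLNA values that did not pass changed sign: RUNXi against DMSO to 0.0013 with quantile normalization, and LEN+RUNXi against LEN to -0.0088 with median-ratio scaling, -0.0059 without LEN replicate 1 and -0.0129 without LEN+RUNXi replicate 2 (range with a sample left out -0.0129 to 0.0607). The log2 differences of FAM101B stayed within 0.74 to 0.84 (LEN against DMSO) and 0.87 to 0.98 (LEN+RUNXi against DMSO), or 0.75 to 0.91 and 0.89 to 1.04 with a sample left out. FLNA in LEN+RUNXi against DMSO (0.16) no longer passed the adjusted p with any gene above 0 RPKM tested (0.16, adjusted p 0.099), median-ratio scaling (0.13, 0.076), only the compared conditions fitted (0.16, 0.087) or no variance trend (0.16, 0.07). It ranged from 0.13 to 0.20 with a sample left out, and the difference against RUNXi from 0.17 to 0.24. For the wider filter more genes are tested, and for the smaller fit fewer samples enter. For the others the cause was not tested.

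Among related genes, LEN against DMSO went from 0 up to 1 without the variance trend and 1 with voom (TGIF1 both times), and ranged from 0 to 2 with a sample left out (2, ITGB7 and TGIF1, without DMSO replicate 1). RUNXi against DMSO went from 0 up to 1 with the replicate block and 1 with voom (SMAD3 both times), and ranged from 2 to 4 down with a sample left out. LEN+RUNXi against LEN went from 0 up to 1 with the replicate block and 1 with voom (SMAD3 both times). Its count down went from 3 to 4 with a minimum mean of 1 RPKM, median-ratio scaling, quantile normalization, only the compared conditions fitted, or voom. LEN+RUNXi against RUNXi went from 4 up to 2 with a pseudocount of 1. Without the fold threshold the counts up and down became 2 and 0, 2 and 9, 5 and 1, 1 and 4, and 11 and 1 in the 5 comparisons, where 1.13%, 4.55%, 8.64%, 4.62% and 15.0% of all tested genes passed. The calls of SMAD3 against RUNXi and of TGIF1 in all 3 of its comparisons also fell below 0.32 with a pseudocount of 1, under which CAV1 was called in LEN+RUNXi against LEN. The SMAD3 call was also lost with any gene above 0 RPKM tested (0.38, limma adjusted p 0.077), quantile normalization (0.30, 0.078) and only the compared conditions fitted (0.38, 0.076), and that of TGIF1 in RUNXi against DMSO with only the compared conditions fitted (-0.47, 0.094).

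Samples with equal replicate numbers had a mean correlation of deviations of 0.052 (2 of 18 pairs over 0.1), and 12 of 12 samples correlated best on average with their own number, so the numbers hint at a pairing that no source states. The replicate block changed no other call. FAM101A gave no value under any setting.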

Other observations

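The protein-coding genes next to FAM101B on chromosome 17 that could be tested were not called in any of the 5 comparisons. VPS53, the nearest on the higher-coordinate side and a subunit of a vesicle tethering complex, was at 4.82 RPKM under DMSO, 5.05 under LEN, 4.69 under RUNXi and 5.05 under both drugs, with log2 differences of 0.07 from DMSO in both lenalidomide conditions (limma adjusted p 0.73 and 0.45). TLCD3A, listed as FAM57A, was at 2.32, 2.45, 2.53 and 2.31 RPKM in that order (limma adjusted p 0.93 and 0.94). On the other side, C17orf97 had at most 9 reads and RPH3AL at most 4 reads in any sample, too few to test.

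Around FLNA, EMD, which encodes the nuclear envelope protein emerin, was at 95.9, 92.8, 91.0 and 94.1 RPKM, and the ribosomal protein gene RPL10 at 237, 231, 218 and 232 RPKM. TEX28 was at 0 reads and TKTL1 had at most 1 read. Neither EMD nor RPL10 was called in the 5 comparisons.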
